A study of Mus musculus with 6 samples.

Results

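The genes described here encode the core proteins of the spliceosomal small nuclear ribonucleoproteins (snRNPs), the related Lsm proteins and the factors with names that begin with Prpf. They were taken from the count table by symbol: 45 symbols began with Snrp, Snrnp, Lsm or Prpf. Snrnp70, Snrpa, Snrpc and Prpf39 were left out, and 0 of the others averaged under 50 counts over the 6 libraries. This gave 41 genes of the 23420 in the table, and all 41 were among the 16067 genes tested. The members with the lowest mean counts were Snrpf with 96.67, Snrpn with 133.3 and Snrnp35 with 631.7.

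The libraries hold ribosome-bound RNA from cerebellar Purkinje neurons of C57BL/6 mice that were 4 weeks old. The cKO mice (n = 3) were Pcp2-BacTRAP; Pcp2-Cre; Rbm17 f/-, and the control mice (n = 3) were Pcp2-BacTRAP; Rbm17 f/+. BacTRAP pulls down tagged ribosomes, here with the tag under the Purkinje cell promoter Pcp2 in both genotypes, and each library came from 1 cerebellum. The controls had no Cre and kept a wild-type Rbm17 allele, so the effect of Cre and that of losing Rbm17 cannot be told apart. Rbm17 encodes a splicing factor that binds proteins at the branch site. It had 25.7, 25.6 and 26.3 CPM (counts scaled to the size of the library) in the cKO libraries and 41.2, 42.5 and 41.3 CPM in the control libraries, a log2 fold change of -0.69 ± 0.09 (standard error, SE; edgeR adjusted p = 0.0016). Libraries held 140110897 to 160571518 gene counts and 73457422 to 83976095 junction-spanning reads.

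Each major spliceosomal snRNP is built on a ring of Sm proteins that closes around its small nuclear RNA after assembly by the SMN complex. The U6 snRNP carries a ring of Lsm proteins instead, and a second Lsm ring in the cytoplasm, with Lsm1 in place of Lsm8, takes part in mRNA decay. The Prpf genes are named after yeast pre-mRNA processing mutants and encode proteins of the tri-snRNP, the U5 snRNP and the catalytic steps. In neurons the imprinted gene Snrpn supplies SmN, a close relative of the ring protein SmB, from a transcript that carries the Snurf reading frame upstream of that of Snrpn.

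Gene and junction readouts were compared between genotypes, that is, the read count of each gene, and the reads that cross each splice junction. At gene level 6 of the 41 genes rose in the cKO libraries, against 4.03% of all genes tested, and 1 fell, against 3.85% of all genes tested (edgeR quasi-likelihood test, Benjamini-Hochberg adjusted p under 0.05). The genes that rose were Snrnp48, Snrnp27, Snrpg, Snrpa1, Lsm7 and Snrpe, and the gene that fell was Lsm6. The median log2 fold change of the 41 was 0.02 (quartiles -0.12 and 0.23), beside 0.01 (quartiles -0.19 and 0.24) over all genes tested. The cKO and control libraries did not overlap for 10 members that were higher in cKO, where the share over all genes was 15.0%, and for 6 that were lower, where it was 13.4%. At junction level the change with the lowest adjusted p in the family was in Snrpn, where a short exon that is absent from the GENCODE annotation had an inclusion of 42.1% ± 1.3 in cKO libraries and 3.69% ± 0.58 in control libraries (SD, n = 3 each).

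**Figure D1:**
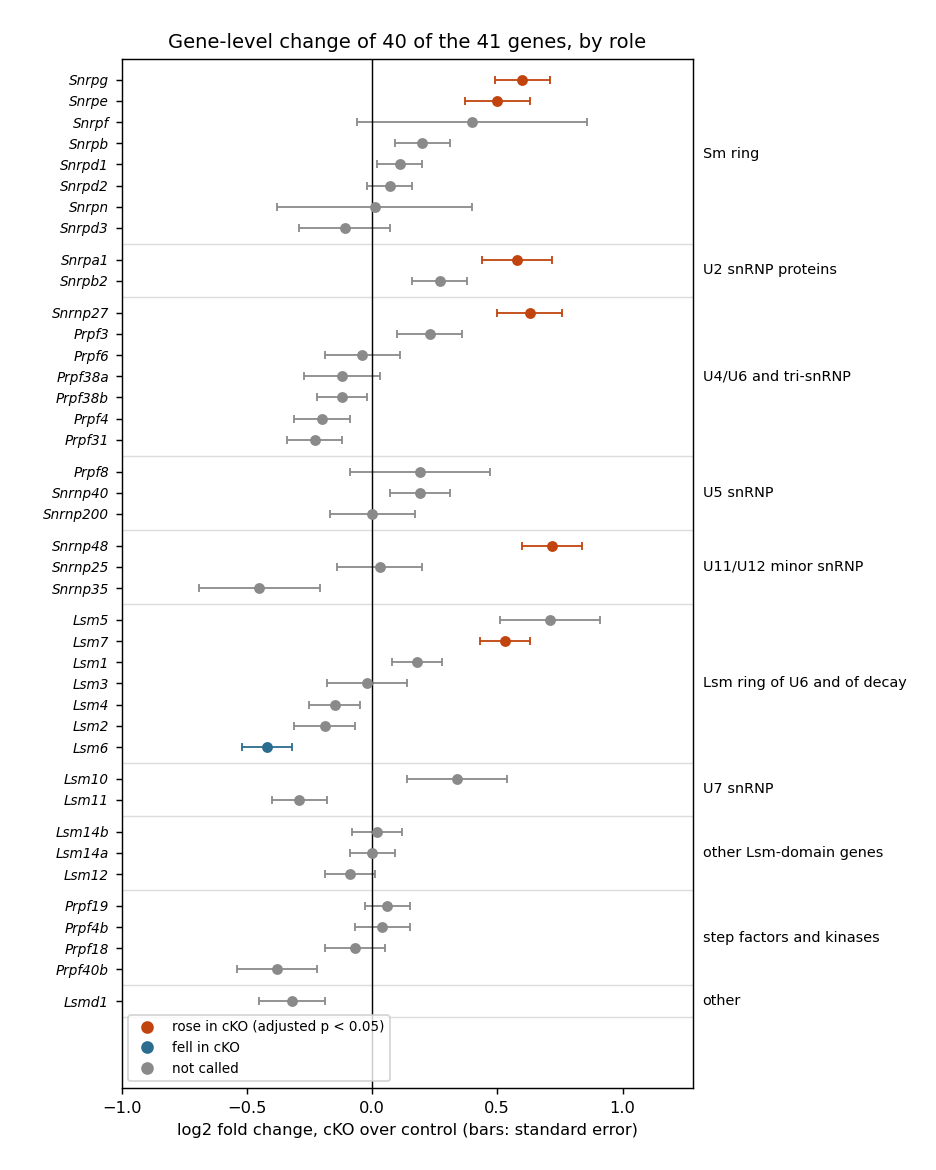
Log2 fold change of 40 of the 41 genes, cKO over control, with its standard error as a bar (x axis), grouped by role down the page. Orange marks the 6 genes that rose, blue the 1 that fell and grey the genes not called; the called genes are spread over the Sm ring, the U2, tri-snRNP, minor snRNP and Lsm groups.

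The new Snrpn exon lies between exons 3 and 4 of the annotated transcript, at chr7:59993662-59993705 on the minus strand of mm10. It is 44 bp long, 1700 bp after exon 3 and 4914 bp before exon 4. In the annotation the Snurf stop codon ends 43 bases before the end of exon 3, and the Snrpn start codon is preceded by 143 bases of exon 4, of which it forms the end. The exon therefore falls between both reading frames and in neither of them. The exon edges that the new junctions join are given as 30 bases each, from the GENCODE transcript on mm10. Capitals mark the 3 bases next to the splice site in the exon 3 end and the exon 4 start, and the Snrpn start codon in the exon 4 end.
Snrpn exon 3 end: cttcaaggtggtggaattcaaggaaaaCAG
Snrpn exon 4 start: GACccatcctctgtctgtgaaactttggtc
Snrpn exon 4 end: gacaacggctattgtggaacagcaatcATG

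Reads that joined exon 3 to the new exon numbered 10811, 9658 and 12446 in the cKO libraries, against 708, 1031 and 1012 in the control libraries. Reads that joined the new exon to exon 4 numbered 12466, 11664 and 14565 in the cKO libraries, against 1079, 1530 and 1479 in the control libraries. Every cKO library was above every control library at both junctions, and all 3 control libraries also held the exon. As a share of all reads in their cluster, meaning the junctions linked by a common donor or acceptor, the first junction took 13.6% ± 0.59 in cKO and 1.26% ± 0.20 in control (SD, n = 3 each; diffSpliceDGE adjusted p = 2.3e-11). The second took 16% ± 0.43 in cKO and 1.88% ± 0.26 in control (adjusted p = 1.1e-09).

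Reads that skipped the new exon, from exon 3 straight to exon 4, numbered 15398, 15607 and 18130 in the cKO libraries and 28670, 30735 and 29601 in the control libraries. Scaled to the library's total of junction reads as RPM, this junction averaged 206 ± 14 in cKO and 393 ± 7.8 in control. Its cluster share was 20.4% ± 0.65 in cKO and 41.1% ± 0.66 in control, a difference of -20.74 points with groups that did not overlap. The diffSpliceDGE adjusted p of that junction was 0.17, so it was not called. Inclusion of the exon, from the mean of its 2 flanking junctions over that mean plus the skipping reads, was 43.0%, 40.6% and 42.7% in the cKO libraries and 3.02%, 4.00% and 4.04% in the control libraries.

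**Figure D2:**
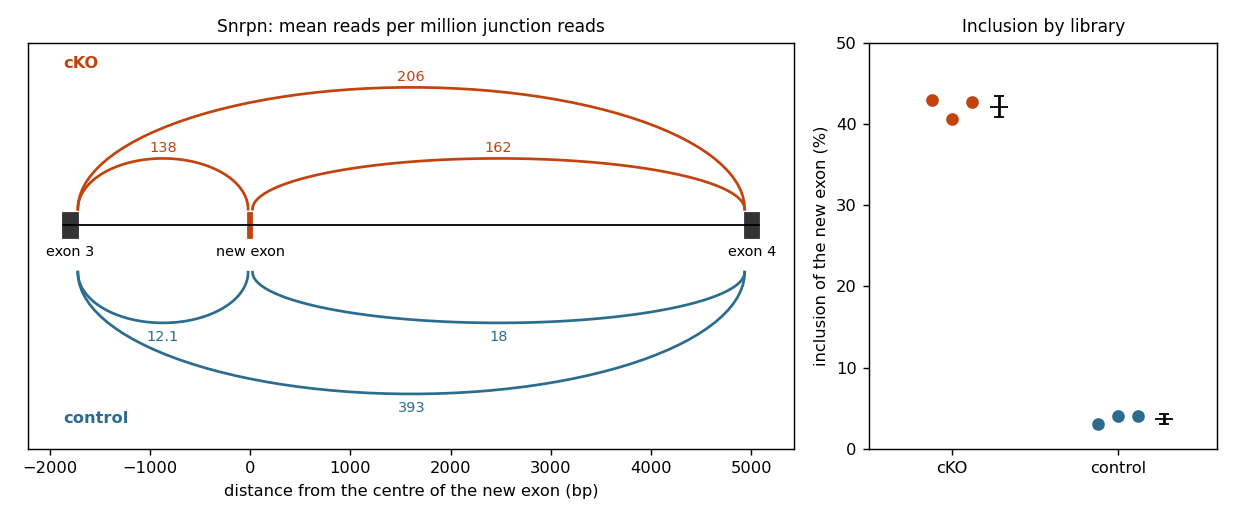
Left, the Snrpn region around the new exon (x axis: distance from its centre in bp), with arcs above for cKO and below for control libraries and each arc labelled with the mean RPM. Right, inclusion of the new exon in percent in each library (points; replicates 1, 2 and 3 from left) with mean and SD (n = 3); the cKO libraries lie between 40.6% and 43.0% and the control libraries between 3.02% and 4.04%.

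A further 5 Snrpn junctions had an adjusted p under 0.05 with a share that moved by less than 5 points, all of them higher in cKO. Of these, 3 joined exon 3 to other acceptors at or near the new exon. The acceptor 80 bases before the exon had 994, 1310 and 1367 reads in cKO libraries against 315, 239 and 290 in control libraries (adjusted p = 6.9e-04). The acceptor 24 bases inside the exon had 508, 513 and 625 reads in cKO against 102, 178 and 167 in control (adjusted p = 0.025), and the one 9 bases inside had 285, 219 and 294 reads against 0, 41 and 0 (adjusted p = 6.1e-05). Summed over these 4 acceptors, 12598, 11700 and 14732 reads entered the exon in cKO libraries and 1125, 1489 and 1469 in control libraries. Those sums are close to the reads that left it for exon 4 in the same libraries, given above. The remaining 2 junctions used acceptors inside exon 4; 1 of them, from exon 3, had 480, 0 and 506 reads in cKO and 0, 0 and 0 in control.

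The Snrpn row of the count table held little of this transcript. It had 136, 116 and 177 counts in the cKO libraries and 115, 137 and 119 in the control libraries, while the annotated Snrpn junctions carried about 2054 reads for each count. Snurf, which shares the exons on the same strand, was listed with at most 1 count in any library. The counting rule for shared exons is not given in the sources used here. By gene count the log2 fold change of Snrpn was 0.01 ± 0.39 (SE; edgeR adjusted p = 0.99). By annotated junction reads it was -0.35, with 2962, 3366 and 3245 CPM of annotated junction reads in cKO libraries and 4117, 4043 and 4047 in control libraries (edgeR adjusted p = 0.025). The annotated sum includes the exon 3 to exon 4 junction that the new exon replaces, so part of the difference lies there by construction. Of the 11 annotated Snrpn introns with at least 1 RPM, 8 were lower in cKO with no overlap of the libraries, against 8.31% of annotated introns over all genes. The 7 introns on either side between exon 2 and exon 10 had log2 ratios of means between -0.23 and -0.11, against -0.93 for the intron that holds the new exon.

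The other genes of the Sm ring were measured with full counts except Snrpf, and 2 of the 8 ring genes rose. Snrpg, which encodes SmG (chr6:86371304-86379328, plus strand), had 22.7, 25.4 and 21.5 CPM in cKO libraries and 14.8, 14.8 and 16.4 CPM in control libraries. All 3 cKO libraries were above all 3 controls, and the log2 fold change was 0.60 ± 0.11 (SE; edgeR adjusted p = 0.011). The call was lost without control replicate 2, with an adjusted p of 0.066. Snrpe, which encodes SmE (chr1:133603871-133610291, minus strand), had 12.6, 11.9 and 13.6 CPM in cKO libraries against 9.28, 8.25 and 9.40 CPM in control libraries. Here too the groups did not overlap, and the log2 fold change was 0.50 ± 0.13 (adjusted p = 0.045). The call of Snrpe was lost with any 1 of the 6 libraries left out, with adjusted p values of up to 0.18.

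SmE, SmF and SmG enter the ring as a trimer, and Snrpf encodes the third of them. Its row had only 65 to 133 counts per library against 51.9 annotated junction reads for each count, and the gene overlaps Ccdc38 on the other strand. Its log2 fold change was 0.40 ± 0.46 by gene count (edgeR adjusted p = 0.69). By annotated junction reads it had 76.1, 71.1 and 76.6 CPM in cKO libraries and 55.8, 56.6 and 55.7 CPM in control libraries, with no overlap and a log2 fold change of 0.41 (edgeR adjusted p = 0.035). Among the ring genes not called, the log2 fold changes were 0.20 ± 0.11 for Snrpb, 0.11 ± 0.09 for Snrpd1, 0.07 ± 0.09 for Snrpd2 and -0.11 ± 0.18 for Snrpd3. Snrpb, which encodes SmB, had 50.4, 50.3 and 50.8 CPM in cKO libraries against 37.6, 44.2 and 50 CPM in control libraries, with control replicate 3 just below the cKO range (adjusted p = 0.34).

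The list holds 2 genes for proteins specific to the U2 snRNP. Both had higher CPM in every cKO library than in any control library, as did 15.0% of all genes tested, and 1 passed the test. Snrpa1, which encodes the U2 A-prime protein (chr7:66059003-66074587, plus strand), had 21.9, 18.7 and 16.5 CPM in cKO libraries and 12, 12.3 and 13.9 CPM in control libraries. Its log2 fold change was 0.58 ± 0.14 (SE; edgeR adjusted p = 0.030), and the call was lost in 4 of the 6 fits that left out 1 library, with adjusted p up to 0.12. Snrpb2, which encodes its partner in binding U2 RNA, had 25.2, 24.1 and 27.0 CPM in cKO libraries and 19.0, 21.0 and 23.5 CPM in control libraries. The log2 fold change of Snrpb2 was 0.27 ± 0.11, which was not called (adjusted p = 0.20).

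In the U4/U6 and tri-snRNP group 1 of 7 genes rose. Snrnp27, a small protein of the tri-snRNP (chr6:86675151-86684522, minus strand), had 39.4, 37.0 and 29.3 CPM in cKO libraries and 21.9, 22 and 24.7 CPM in control libraries. The lowest cKO library was above the highest control, and the log2 fold change was 0.63 ± 0.13 (SE; edgeR adjusted p = 0.015). The call was lost without cKO replicate 1, cKO replicate 2 or control replicate 2, with adjusted p of up to 0.077. The other 6 genes had log2 fold changes between -0.23 for Prpf31 and 0.23 for Prpf3, both proteins of the U4/U6 snRNP, and were not called. Prpf38b, which takes its name from a yeast factor of spliceosome activation, had 43.5, 43.5 and 41.5 CPM in cKO libraries and 46.1, 41.3 and 52.2 CPM in control libraries, which overlapped.

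In the U5 snRNP group 0 of 3 genes passed the test in edgeR, in DESeq2 or at an unadjusted p under 0.05. Prpf8, the large protein at the catalytic centre, had the highest CPM of the family in this table, with 452, 243 and 289 CPM in cKO libraries and 422, 234 and 204 CPM in control libraries. The libraries within each genotype differed more than the genotypes did, and the log2 fold change was 0.19 ± 0.28 (edgeR adjusted p = 0.76). Left-out libraries moved it between -0.11 and 0.58. Snrnp200, the helicase that unwinds U4 from U6, had a log2 fold change of 0.00 ± 0.17. Snrnp40, a WD-repeat protein of the U5 snRNP, had 28.9, 29.5 and 28.4 CPM in cKO libraries and 22.3, 24.3 and 29.2 CPM in control libraries, where control replicate 3 lay within the cKO range (0.19 ± 0.12; edgeR adjusted p = 0.38).

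The U11/U12 group belongs to the minor spliceosome, which removes a rare class of introns. Snrnp48 (chr13:38204938-38227665, plus strand), a U11/U12 protein, had 22.7, 18.4 and 18.9 CPM in cKO libraries and 12.4, 12.2 and 11.9 CPM in control libraries. Its log2 fold change was 0.72 ± 0.12 (SE; edgeR adjusted p = 0.0068), with no overlap between genotypes, and it was called in all 6 fits that left out 1 library. The other 2 members were not called. Snrnp35 had 4.40, 3.13 and 3.44 CPM in cKO libraries and 6.43, 3.75 and 4.85 CPM in control libraries, which overlapped (-0.45 ± 0.24; edgeR adjusted p = 0.32), and Snrnp25 had a log2 fold change of 0.03 ± 0.17.

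**Figure D3:**
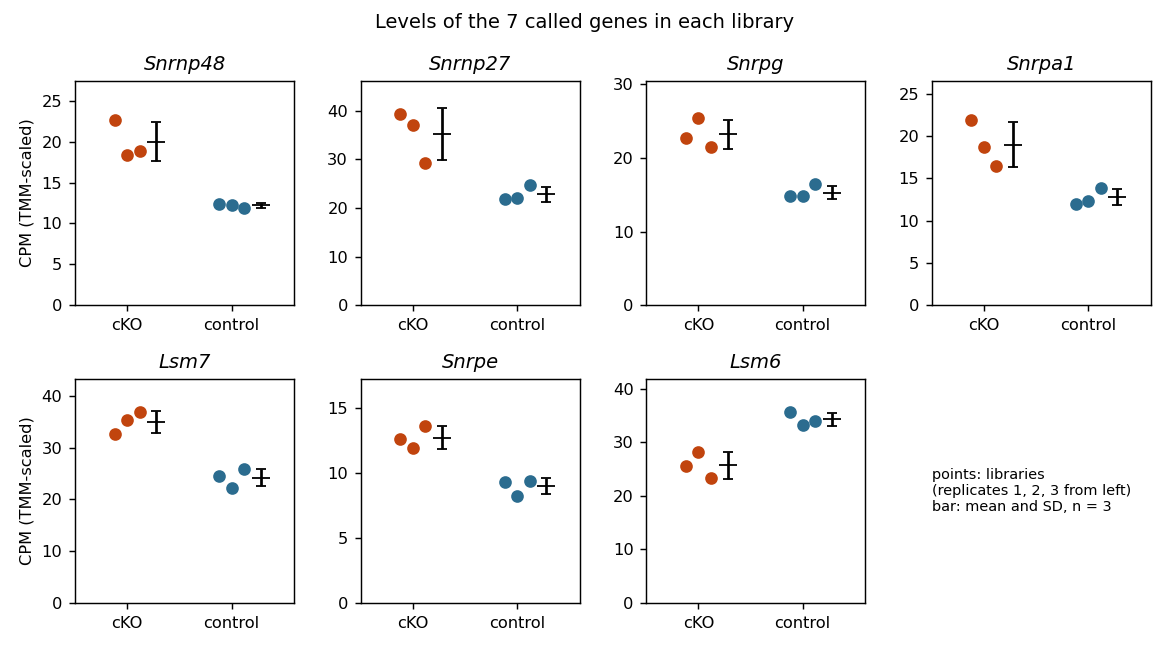
CPM on TMM-scaled library sizes (y axis, from 0) of the 7 genes called at gene level, in each cKO and control library (points), with mean and SD (n = 3). In all 7 panels the cKO and control points do not overlap; Lsm6 is the panel where the cKO points are lower.

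Among the 7 Lsm ring genes 1 rose and 1 fell. Lsm7 (chr10:80852821-80855209, minus strand), a member of both Lsm rings, had 32.7, 35.4 and 36.9 CPM in cKO libraries and 24.5, 22.3 and 25.8 CPM in control libraries. Its log2 fold change was 0.53 ± 0.10 (SE; edgeR adjusted p = 0.012), and the call was lost without cKO replicate 3 or control replicate 2, with adjusted p of up to 0.077. Lsm5, also in both rings, had 6.38, 5.66 and 5.30 CPM in cKO libraries against 4.35, 3.10 and 3.16 CPM in control libraries. The groups did not overlap, and the log2 fold change of 0.71 ± 0.20 had an edgeR adjusted p of 0.064. DESeq2 called Lsm5, with an adjusted p of 0.020. A row named Naa38 carries an older synonym of Lsm8, the subunit of the nuclear ring, in the RefSeq table, and was no member by its symbol. It had a log2 fold change of 0.31 ± 0.12 (adjusted p = 0.17).

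Lsm6 (chr8:78804865-78821140, minus strand), the ring gene that fell, had 25.6, 28.2 and 23.3 CPM in cKO libraries and 35.6, 33.3 and 33.9 CPM in control libraries. The groups did not overlap, and the log2 fold change was -0.42 ± 0.10 (SE; edgeR adjusted p = 0.038). The call was lost in 5 of the 6 fits that left out 1 library, with adjusted p up to 0.17. By annotated junction reads Lsm6 had a log2 fold change of -0.07 (edgeR adjusted p = 0.85). Lsm1, the subunit that marks the cytoplasmic ring, had 37.2, 40 and 35.6 CPM in cKO libraries and 31.4, 34.5 and 33.8 CPM in control libraries. The cKO libraries were all above the controls, and the log2 fold change of 0.18 ± 0.10 was not called (edgeR adjusted p = 0.32). Lsm2, Lsm3 and Lsm4, shared by both rings, were not called and had log2 fold changes between -0.19 and -0.02.

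Of the U7 pair, which works in histone mRNA processing, Lsm11 had 83.3, 82.2 and 86.7 CPM in cKO libraries and 114, 106 and 87.5 CPM in control libraries. Its log2 fold change was -0.29 ± 0.11 (edgeR adjusted p = 0.14), and it passed the test without control replicate 3, at -0.41 and an adjusted p of 0.045. By annotated junction reads Lsm11 had a log2 fold change of 0.09 ± 0.25 (SE; edgeR adjusted p = 0.90). That value rests on only 246 to 342 such reads per library, about 0.0208 for each count, and has no clear sign. The other U7 gene, Lsm10, had 4.92, 6.70 and 4.99 CPM in cKO libraries and 3.77, 4.37 and 5.01 CPM in control libraries, which overlapped (0.34 ± 0.20; edgeR adjusted p = 0.38).

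Lsm12, Lsm14a and Lsm14b, which carry Lsm domains but belong to none of these rings, had log2 fold changes between -0.09 and 0.02. Lsm14a, a protein of cytoplasmic mRNA granules, had 72.8, 84.8 and 81.4 CPM in cKO libraries and 77.6, 82 and 79.2 CPM in control libraries. Lsm12 had 60.5, 76 and 73 CPM in cKO libraries and 73.3, 72.7 and 76.7 CPM in control libraries, so both overlapped between the genotypes. Prpf18, Prpf19, Prpf40b and the other genes grouped as step factors and kinases lay between -0.38 and 0.06. The name of that group is a working label and need not describe each gene in it. Of the 5 genes 0 were called in edgeR or DESeq2, and 1, Prpf40b, had an unadjusted p under 0.05 in edgeR. Prpf40b had 11.6, 14.5 and 13.5 CPM in cKO libraries and 16.4, 14.2 and 20.8 CPM in control libraries, which overlapped (-0.38 ± 0.16; edgeR adjusted p = 0.19). Prpf19, a ubiquitin ligase of the activated spliceosome, had 61.3, 66.4 and 72.1 CPM in cKO libraries and 62.6, 65.6 and 63.7 CPM in control libraries (0.06 ± 0.09; edgeR adjusted p = 0.78). The row Lsmd1, now named Naa38 in the annotation and a subunit of an acetyltransferase, had 11.5, 12.8 and 14.2 CPM in cKO libraries and 14.9, 16 and 17.1 CPM in control libraries. These did not overlap, and the log2 fold change of -0.32 ± 0.13 was not called (edgeR adjusted p = 0.17).

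Gene-level calls were set beside sums of reads over annotated junctions, which come from the same libraries and are not independent of the counts. By that measure 7 of the 41 genes rose, against 2.99% of the 14771 genes tested, and 1 fell, against 2.90%. The 6 genes that rose by count were all among the 7, and Snrpf was the other one. The gene that fell by this measure was Snrpn. In Snrnp48, Snrnp27, Snrpg, Lsm7 and Snrpe every annotated intron with at least 1 RPM was higher in cKO with no overlap, 8, 5, 3, 4 and 4 introns in that order, and in Snrpa1 it was 7 of 9. Over all genes 15.3% of the 90834 annotated introns at that level were higher with no overlap and 8.31% were lower. These counts describe genes already called from the same libraries and are no further support for the calls. Lsm5, not called by count, had 4 of 4 such introns. In Prpf8 all 41 introns had a higher mean in cKO, and in 0 of them did the libraries separate. Prpf40b had 5 of 15 introns that were lower with no overlap.

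**Figure D4:**
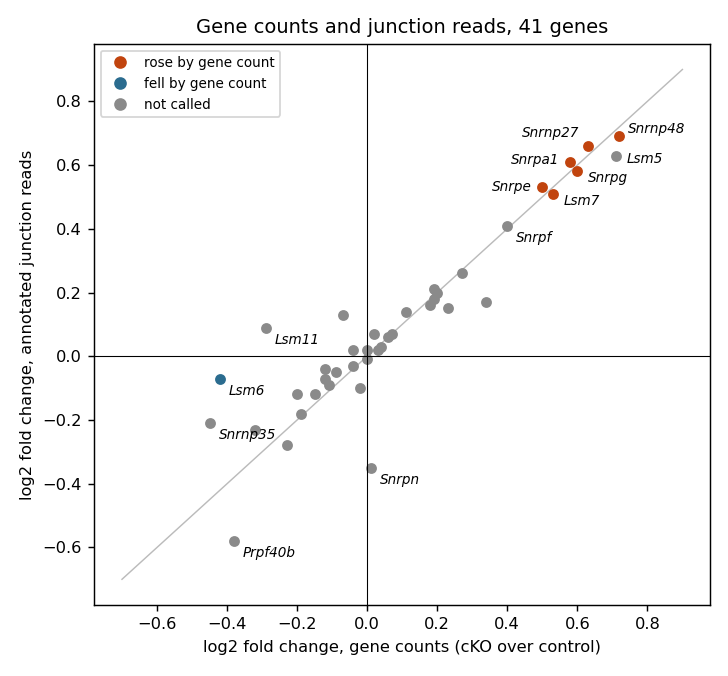
Log2 fold change by annotated junction reads (y axis) against that by gene count (x axis) for the 41 genes, cKO over control, with the line of equality in grey. The 6 genes that rose lie near the line, while Lsm6 (-0.42 by count and -0.07 by junction reads), Lsm11 (-0.29 and 0.09) and Snrpn (0.01 and -0.35) lie off it. Lsm11 had few junction reads and Snrpn few counts.

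Junctions were tested in 38 of the 41 genes, 336 junctions in all, of which 174 are annotated introns and 162 are not. In cKO libraries 3 rose, against 0.659% of the 112047 junctions tested, and 0 fell, against 0.0928% (diffSpliceDGE, called at an adjusted p under 0.05 with a shift in share of 5 points or more). At an unadjusted p under 0.05 there were 35, in either direction, which is 10.4% of the 336, against 13.5% of all junctions tested. Of the 3, 2 were the flanking junctions of the new Snrpn exon. Reads on junctions outside the annotation made up 6.47%, 5.94% and 6.81% of the family's junction reads in cKO libraries and 1.22%, 2.23% and 1.45% in control libraries. Without Snrpn these shares were 0.555%, 0.699% and 0.517% in cKO and 0.345%, 0.479% and 0.618% in control, which overlapped. Over all genes they were 2.13%, 2.03% and 2.04% in cKO and 1.52%, 1.98% and 1.69% in control.

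Inclusion was computed for 1 annotated exon each of Lsm6, Lsm5 and Snrpa1, chosen after the values were seen, and was not tested. Exon 2 of Lsm6, 99 bp of the untranslated leader at chr8:78819987-78820085, had an inclusion of 44.1%, 38.1% and 45.8% in cKO libraries against 68.1%, 67.2% and 74.3% in control libraries. The groups did not overlap, with means of 42.7% ± 4.1 in cKO and 69.9% ± 3.9 in control (SD, n = 3 each). The junction from exon 1 to exon 2 had 44, 34 and 44 reads in cKO and 56, 69 and 85 in control. That was fewer reads than from exon 2 to exon 3 in every library. The mean of these 2 junctions therefore need not measure the use of an internal exon. The junction from exon 2 to exon 3 had 133, 138 and 164 reads in cKO and 226, 234 and 320 in control. Its cluster share was 12.6% ± 1.3 in cKO and 22.4% ± 3.4 in control. This was not called (diffSpliceDGE adjusted p = 0.19), and it was called when all junctions of the gene formed the cluster. The downstream introns of Lsm6 did not show the lower level, with log2 ratios of means of 0.02 for exon 3 to 4 and 0.19 for exon 4 to 5.

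Exon 2 of Lsm5 (chr6:56703314-56703409, minus strand) is 96 bp of coding sequence, a multiple of the codon length, and is shown because its skipping was seen mainly in cKO libraries. It is given from the GENCODE transcript on mm10, with its first and last 3 bases in capitals.
Lsm5 exon 2: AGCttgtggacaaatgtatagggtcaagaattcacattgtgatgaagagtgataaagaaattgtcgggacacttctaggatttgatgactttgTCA

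Its inclusion was 77.7%, 88.1% and 85.8% in cKO libraries and 98.5%, 94.8% and 94.0% in control libraries, with no overlap. The skipping reads in that value were those from exon 1 to exon 3 and from exon 1 to exon 4 together. They numbered 75, 33 and 41 in cKO libraries and 3, 8 and 9 in control libraries. The junction that skips exon 2 alone, from exon 1 to exon 3, had 43, 10 and 10 reads in cKO libraries and 0, 0 and 0 in control libraries. Its cluster share was 2.23% ± 1.9 in cKO, with a diffSpliceDGE adjusted p of 0.021, and it did not reach the 5 points needed for a call. Summed over the libraries, 0 of 1656 cluster reads in control allow a share of up to 0.181% (3 reads, counting error only), so the cKO share was at least 12.8-fold higher. Of the 63 cKO reads 43 came from cKO replicate 1, and without that library the share was at least 6.36-fold higher. The junction from exon 1 to exon 4, which skips exon 3 as well, had 32, 23 and 31 reads in cKO and 3, 8 and 9 in control. It was not called (diffSpliceDGE adjusted p = 0.83). In Snrpa1 the inclusion of exon 6 overlapped between the genotypes, at 72.0% ± 3.4 in cKO and 70.2% ± 3.4 in control. Its skipping reads came from 2 junctions. That from exon 5 to exon 7 had 161, 146 and 75 reads in cKO and 85, 110 and 101 in control. That from exon 4 to exon 7 had 90, 26 and 57 reads in cKO and 3, 0 and 14 in control (diffSpliceDGE adjusted p = 0.20).

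**Figure D5:**
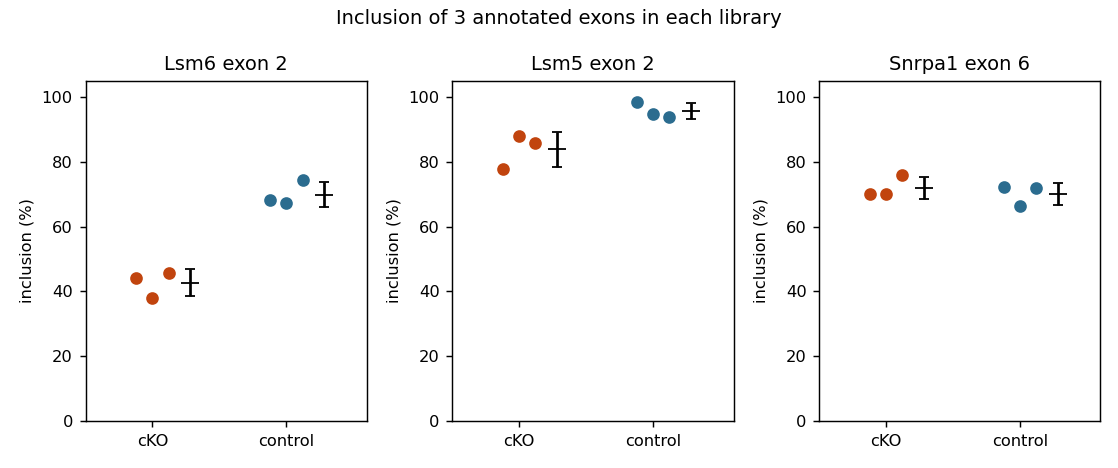
Inclusion in percent (y axis) of exon 2 of Lsm6, exon 2 of Lsm5 and exon 6 of Snrpa1 in each cKO and control library (points; replicates 1, 2 and 3 from left), with mean and SD (n = 3). The genotypes are apart for Lsm6 (42.7% in cKO, 69.9% in control) and Lsm5 (83.9% in cKO, 95.8% in control) and overlap for Snrpa1 (72.0% in cKO, 70.2% in control). For Lsm5 and Snrpa1 the skipping reads include a junction that also skips a neighbouring exon. For Lsm6 the reads of the flanking junctions were unequal.

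Other junctions outside the annotation with a large rise in share were not called. A junction in Snrpd1 had 23, 0 and 10 reads in cKO libraries and 0, 0 and 0 in control libraries (diffSpliceDGE adjusted p = 0.62), and its cluster held 12 reads in the control libraries together. In Prpf6 a junction between known sites had 33, 54 and 12 reads in cKO and 9, 0 and 0 in control (adjusted p = 0.14). In Lsm6 a junction to exon 3 from a donor outside the annotation had 30, 41 and 44 reads in cKO and 13, 13 and 10 in control (adjusted p = 0.39). The corresponding junctions in Lsm11 and Lsm3 overlapped between the genotypes.

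The promoters of the genes that rose were searched for 4 motifs on both strands, over 250 bases upstream of each RefSeq start (build GRCm38.p6), of which 32 members had an entry. The ETS motif CCGGAAG was present for 8 of the 32 members and in 6.91% of 32851 promoters, and for 2 of the 6 genes that rose, Snrpg and Snrnp27. The CCAAT motif was present for 15 of 32 members and in 33.8% of all promoters, and for 1 of the 6. The NRF1 motif GCATGCGC was present for 2 of 32 members and in 2.26% of all, and for 0 of the 6. The YY1 motif AAGATGGC was present for 1 of 32 members, Lsm7, and in 1.56% of all. A member was counted when any of its listed starts had the motif, whereas the percentages are of single promoters. Genes with more than 1 start, such as Lsm7 with 2, had more chances of a match, so the counts and percentages are not in the same unit. The windows of the 2 genes with the highest fold among those that rose are shown 5′ to 3′ up to the start, with capitals for the motif match; Snrnp48 (chr13:38204689-38204938, plus strand) has none of the 4 and Snrnp27 (chr6:86684492-86684741, minus strand) has the ETS motif 44 bases before the start.
Snrnp48 promoter: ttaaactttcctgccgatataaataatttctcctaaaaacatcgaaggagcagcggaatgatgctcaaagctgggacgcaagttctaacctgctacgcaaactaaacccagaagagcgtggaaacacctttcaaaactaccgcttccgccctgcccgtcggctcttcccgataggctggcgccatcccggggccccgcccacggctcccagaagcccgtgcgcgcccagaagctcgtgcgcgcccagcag
Snrnp27 promoter: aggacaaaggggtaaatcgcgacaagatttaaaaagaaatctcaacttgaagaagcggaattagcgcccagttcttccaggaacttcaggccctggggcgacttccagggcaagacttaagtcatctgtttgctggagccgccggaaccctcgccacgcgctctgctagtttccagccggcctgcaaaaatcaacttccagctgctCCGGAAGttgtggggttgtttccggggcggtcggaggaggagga

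Exonic length ran weakly against the fold change, with a Spearman rho of -0.24 over the 41 members and -0.11 over 14294 protein-coding genes tested; the genes share libraries and are not independent. Among genes of up to 1500 bp, 1 of the 8 members rose, where 6.58% of all genes of that length did. Among genes between 1500 and 3000 bp, 3 of the 11 members rose, where 4.66% of all genes of that length did. Between 3000 and 6000 bp, 1 of the 13 members rose and 1 fell, where 3.93% and 3.65% of all genes did. Among genes over 6000 bp, 1 of 9 members rose, Snrnp48, where 2.33% of all genes did.

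Genes of 4 related pathways were tested in the same fits. Of 18 genes of snRNP assembly, such as Smn1 and the Gemins, 0 were called in edgeR or DESeq2 and 0 had an unadjusted p under 0.05, with a median log2 fold change of 0.06. Of 9 partners of the tri-snRNP 0 were called in edgeR or DESeq2 and 3 had an unadjusted p under 0.05, with a median of 0.15. Of 14 genes of the Prp19 complex and its partners 1 rose, Ctnnbl1, with 19.0, 16.2 and 14.5 CPM in cKO and 11.5, 9.94 and 11 CPM in control (log2 fold change 0.62 ± 0.14; edgeR adjusted p = 0.024). DESeq2 also called 1 of the 14, and 4 had an unadjusted p under 0.05. Of 9 genes of the minor spliceosome 1 fell, Zmat5, with 55.2, 60.1 and 58.0 CPM in cKO and 94.2, 90.3 and 88.4 CPM in control (-0.66 ± 0.09; edgeR adjusted p = 0.0017), whose protein belongs to the same U11/U12 particle as that of Snrnp48. DESeq2 called 2 of the 9, and 3 had an unadjusted p under 0.05 in edgeR. Over all genes tested 4.03% rose and 3.85% fell by edgeR adjusted p. The shares of all genes called by DESeq2 or at an unadjusted p under 0.05 were not obtained. The counts at those thresholds, here and in the groups above, are therefore not evidence of a change in these lists.

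Cell type markers moved with genotype. Of 9 Purkinje cell markers 7 fell, and their summed level was between 18009.5 and 21086.9 CPM in cKO libraries and between 30494.1 and 40659.4 CPM in control libraries. Of 10 microglia markers 6 rose, with sums between 85.76 and 148.7 CPM in cKO and between 40.84 and 61.07 CPM in control. No marker in these lists was under 1 CPM in all libraries. The summed microglia level was highest in cKO replicate 1, as were Snrnp48, Snrnp27 and Snrpa1, whereas Lsm7 and Snrpe were highest in cKO replicate 3 and Snrpg in cKO replicate 2. Among the cKO libraries, replicate 1 also had the lowest sums of the Purkinje cell, granule cell, astrocyte and Bergmann glia, oligodendrocyte and endothelial markers. The part of these markers in the gene-level results was not tested, and in such samples fewer cells of a type and less RNA per cell cannot be told apart. Of 6 astrocyte and Bergmann glia markers 1 rose, Gfap, and 1 fell, with sums between 746.6 and 1037 CPM in cKO and between 1012 and 1320.3 CPM in control. The summed levels of granule cell, oligodendrocyte and endothelial markers overlapped between the genotypes. Granule cell sums were between 2191 and 3539.6 CPM in cKO and between 2642 and 3754 CPM in control. Oligodendrocyte sums were between 1635 and 2575 CPM in cKO and between 2057 and 3338 CPM in control. Markers of cells other than Purkinje cells were thus present in all 6 libraries.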

How the data were processed

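Ribosome-bound RNA of 3 cKO and 3 control mice was amplified with the NuGEN Ovation RNA-Seq System v2 and sequenced on an Illumina instrument, per the labels' protocols. A table of unnormalized gene counts and, for each library, the count of reads on each splice junction were deposited by the authors. TopHat2 2.1.0, HTSeq 0.6.0 and mm10 are named in the submitters' processing notes. For the annotation, strand setting and overlapping genes, the authors' choices were not given in the sources used here. Dates stood in place of 27 gene names, and 4 rows repeated a name. Amplified reads are not independent molecules, so floors cover counting error only. The Rn45s row took 9.56% to 13.5% of counts.

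The gene test was the quasi-likelihood test of edgeR 4.0.16 (R 4.3.3) after filterByExpr and TMM scaling, without covariates, with Benjamini-Hochberg adjustment over all genes tested and a threshold of 0.05. Each standard error was derived from the F statistic of its fold change. CPM values use TMM-scaled library sizes. Clusters were formed by shared donor or acceptor from junctions that had 10 or more reads in total and reads in 2 or more libraries. The test was diffSpliceDGE, and calls also required 5 points of change in share. Junction coordinates are the first and last intron bases, 1-based, compared with GENCODE introns of the same build. Annotated junction reads were also summed per gene and tested as the gene counts were. DESeq2 1.42.0 and limma-voom (limma 3.58.1) were alternatives. The code was tested on simulated data.

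Values in every sample were to be given for each called gene, each gene with a called junction, and, in each role, the gene of highest mean CPM and the gene of largest absolute log2 fold change. Among junctions outside the annotation that were not called, those with the largest rise in share and a mean of at least 10 cKO reads were named. Exons and introns described beyond these rules were chosen after their values were seen. The members and lists were chosen with earlier results of these data known. Replicate numbers were not used as pairs in the main tests, because the labels do not say that they pair the samples. Within a genotype no 2 libraries agreed within sampling noise. The values of 1 member, with the junction called in it, are not reported here.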

Additional observations from a re-analysis of the deposited data

How the results depend on the processing

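RLE and upper quartile scaling, a filter at 50 counts, limma-voom and leaving out the Rn45s row each gave the 6 genes that rose and the 1 that fell, while DESeq2 added Lsm5 and the fit with no filter lost Snrpe. With 1 library left out, between 1 and 5 genes rose and between 0 and 1 fell; the 1 left without control replicate 2 was Snrnp48, and 3 rose without cKO replicate 1 or cKO replicate 2 (Snrnp48, Snrpg and Lsm7). The gene that fell without control replicate 3 was Lsm11, not Lsm6. With annotated junction reads Snrpn was at -0.35 on the log2 scale, against 0.01 ± 0.39 by count, which has no clear sign. Lsm11 was at 0.09 ± 0.25 with its few junction reads, also without a clear sign, against -0.29 ± 0.11 by count. With 1 library left out Snrpn lay between -0.14 and 0.10 and Prpf8 between -0.11 and 0.58. Apart from Snrpn by junction reads, none of these was called on the side opposite to the count value. Of the values of single genes and junctions reported under the alternatives, 363 kept their direction and side of the threshold, 25 lost the call, 4 gained it and 7 changed sign.

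With no minimum share change 9 junctions rose, and with at least 10 points 2 did. With all junctions of a gene as the cluster 0 rose and 1 fell, the Lsm6 junction from exon 2 to exon 3; shares are then smaller by construction, and those of the Snrpn junctions that rose differed by 3.52 and 4.04 points. Between 2 and 3 junctions rose and 0 fell with 1 library left out; without control replicate 1 the named Snrpd1 junction has no control reads in its cluster and gives no value.

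Deviations from the group mean correlated at 0.045, -0.062 and 0.021 for the same replicate numbers, and between -0.113 and 0.096 for other pairs. The labels do not say that equal numbers share a litter or day, and with 3 libraries per genotype these correlations cannot show whether they do. With the replicate block 7 genes rose (Lsm5 was added) and 1 fell, 2 junctions rose and 1 fell, the Snrpn junction from exon 3 to exon 4.

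With 3 libraries per genotype an exact permutation test cannot go below 0.10, so exon inclusion was given without a test. Junctions with a few reads in 1 library are limited by depth, and the Snrpn and Snrpf rows by how reads were assigned. No mm10 genome was used here, so the bases of the new exon and its splice sites are not shown.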
